A study of Mus musculus with 12 samples.

Results

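The genes described here are 10 markers of cells and proteins that reach the brain with the blood or with inflammation. These are the neutrophil genes *S100a8*, *S100a9*, *Ngp* and *Camp*, the acute-phase genes *Lcn2* (also a neutrophil gene) and *Serpina3n*, and the red cell genes *Hba-a1*, *Hbb-bs*, *Hbb-bt* and *Alas2*. They were chosen by name, out of 22180 gene symbols that have a transcript cluster of their own on the array. A transcript cluster is the set of probes that the array assigns to a transcript, and its value is given on the log2 scale. For 9 of the 10 symbols, 12 clusters carried the symbol in the array annotation, and no cluster carried *Hbb-bt*. Of these clusters 8 passed the filter on low values (3 or more arrays over a log2 value of 5) and were tested, and 4 were not.

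RNA came from brain tissue of 12 male mice, with 3 mice in each of 4 groups. The labels give an age of 16 to 20 weeks for all of them, while the study's text gives an older age for the brains on the arrays. WT mice were C57Bl/6J, and Stau2GT mice carried the gene trap allele B6.129P2-Stau2Gt(RRG396)Byg in the gene of the RNA-binding protein Staufen2, and the labels give the same C57Bl/6J strain background for both. Trained WT and trained Stau2GT mice had passed through 4 weeks of behavioral tests (open field, object and place memory, Barnes maze), beginning when they were 4 months old, and naive WT and naive Stau2GT mice were taken before such tests. The array names of all naive mice carried a different date from those of all trained mice, so training and date cannot be told apart. The comparison of Stau2GT with WT mice in each training state and of trained with naive mice of each genotype asked whether these markers follow genotype or training, or differ between single mice.

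Neutrophils store lipocalin 2 and antimicrobial proteins in granules and carry the S100A8/S100A9 dimer, calprotectin, in their cytosol. Lipocalin 2, encoded by *Lcn2*, binds bacterial siderophores and is also made by endothelium, astrocytes and choroid plexus during systemic inflammation, and the serpin encoded by *Serpina3n* is a marker of reactive astrocytes. Hemoglobin alpha and beta chains, and the enzyme that begins heme synthesis in red cell precursors (*Alas2*), mark blood left in a tissue, although neurons can also hold hemoglobin mRNA. In brain tissue measured whole, fewer cells of a type and less RNA per cell cannot be told apart. For these mice the sources used here do not give whether the vessels were rinsed before RNA was taken.

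Promoters of *Lcn2*, the member whose values differed most between mice, and of a gene for each red cell protein are shown. RefSeq promoters of GRCm38.p6 (250 bases before to 50 after the start) were matched for all 10 symbols. Capitals mark matches on either strand. The TATA motif was searched as TATAAA and in a second form that ends in G, TATAAG. The CAAT-box motif was searched as CCAAT. The GATA motif, the core bound by GATA factors, was searched as GATAA. The CACC motif, bound by factors of the KLF family, was searched as CCACCC. The C/EBP-like motif was searched as TTNNGNAA.
Lcn2, chr2:32387690-32387989, minus strand: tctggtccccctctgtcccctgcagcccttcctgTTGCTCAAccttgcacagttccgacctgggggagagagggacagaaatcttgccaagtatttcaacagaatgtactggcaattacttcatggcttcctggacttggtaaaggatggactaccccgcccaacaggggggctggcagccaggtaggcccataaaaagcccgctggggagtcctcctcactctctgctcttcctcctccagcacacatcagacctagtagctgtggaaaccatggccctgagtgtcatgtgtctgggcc
Hba-a1, chr11:32283422-32283721, plus strand: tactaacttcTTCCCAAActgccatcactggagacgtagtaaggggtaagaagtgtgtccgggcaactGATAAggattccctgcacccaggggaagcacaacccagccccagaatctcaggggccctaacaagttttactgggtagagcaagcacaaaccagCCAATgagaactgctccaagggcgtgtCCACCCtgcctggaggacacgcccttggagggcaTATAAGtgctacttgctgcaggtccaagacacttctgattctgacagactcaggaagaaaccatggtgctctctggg
Hbb-bs, chr7:103827879-103828178, minus strand: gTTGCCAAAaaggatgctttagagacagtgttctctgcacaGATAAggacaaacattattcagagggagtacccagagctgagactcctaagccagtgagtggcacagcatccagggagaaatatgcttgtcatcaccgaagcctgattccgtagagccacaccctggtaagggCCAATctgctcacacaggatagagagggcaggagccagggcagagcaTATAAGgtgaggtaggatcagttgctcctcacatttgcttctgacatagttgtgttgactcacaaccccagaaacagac
Alas2, chrX:150547167-150547466, plus strand: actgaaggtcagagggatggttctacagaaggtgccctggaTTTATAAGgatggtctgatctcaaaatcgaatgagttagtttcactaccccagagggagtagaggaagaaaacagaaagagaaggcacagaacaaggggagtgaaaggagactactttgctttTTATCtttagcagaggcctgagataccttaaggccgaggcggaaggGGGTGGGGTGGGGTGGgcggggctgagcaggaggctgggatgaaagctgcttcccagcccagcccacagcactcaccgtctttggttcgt
The *Hba-a1* promoter had the TATA motif that ends in G at position -27 from the start, the CACC motif at -61, the CAAT-box motif at -88, the GATA motif at -182 and the C/EBP-like motif on the opposite strand at -240. The *Hba-a2* promoter, offset by 3 bases, was identical to it at all 297 aligned bases. The *Hbb-bs* promoter held the same form of the TATA motif at -29, the CAAT-box motif at -76, the GATA motif at -209 and the C/EBP-like motif on the opposite strand at -249. It had no match to CCACCC, the only letters searched for the CACC motif. The letters ccacaccc, which this search cannot match, lie before its CAAT-box motif, so a CACC element is not shown to be absent. *Alas2* had the CACC motif 3 times on the opposite strand, at -30, -35 and -40, each match sharing a base with the next, besides the GATA motif on the opposite strand at -86, and no match to the CAAT-box motif. Its matches to both forms of the TATA motif, at -209 and -207, overlap. In the *Lcn2* promoter the C/EBP-like motif was the only match, at -216, and the kappaB motif, searched as well, matched none of these 10 promoters. Of 32817 promoters of this length, 13.6% held the TATA motif, 7.44% its form that ends in G, 37.4% the CAAT-box motif, 25.4% the GATA motif, 31.5% the CACC motif, 40.7% the C/EBP-like motif and 4.50% the kappaB motif. Such matches describe letters and not sites in use.

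The cluster annotation did not separate close copies. Both alpha-globin clusters (17248276, called A here, and 17248263, called B) were annotated to *Hba-a1* and *Hba-a2*. All 3 beta-globin clusters (17481232, A; 17494221, B; 17494228, C) were annotated to *Hbb-b1*, *Hbb-b2* and *Hbb-bs*. The cluster 17538575 was annotated to *Alas2* and to *Apex2*, a DNA repair endonuclease whose RefSeq gene (chrX:150426974-150588206) spans that of *Alas2* (chrX:150547417-150570622), so its value belongs to either gene. These 6 clusters are named with all their genes.

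*Lcn2* (cluster 17383892) gave the widest values of all member clusters. In naive WT mice its log2 value was 8.93 in mouse 1, 5.51 in mouse 2 and 8.46 in mouse 3. In naive Stau2GT mice it was 5.71, 6.07 and 5.35, in trained WT mice 6.09, 6.35 and 5.50, and in trained Stau2GT mice 5.27, 5.44 and 5.22. Naive WT mice 1 and 3 therefore stood above all 10 other mice, while naive WT mouse 2 lay within the range of the naive Stau2GT mice. Against the median of the other 5 naive mice, mouse 1 was 9.32-fold and mouse 3 was 6.73-fold higher, and mouse 2 deviated by -0.56 on the log2 scale. Among 27966 tested clusters this deviation ranked 1 from the top in naive WT mouse 1 and 2 in naive WT mouse 3. Only 2 clusters, the pituitary hormone genes *Prl* (SD 2.72) and *Gh* (SD 2.11), had a larger SD over the naive WT mice than *Lcn2* (SD 1.85).

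The group means of *Lcn2* were 7.63 ± 1.85 in naive WT, 5.71 ± 0.36 in naive Stau2GT, 5.98 ± 0.44 in trained WT and 5.31 ± 0.12 in trained Stau2GT mice (SD, n = 3 each). The difference of Stau2GT from WT was -1.92 in naive mice (standard error 0.68, limma adjusted p = 0.954) and -0.67 in trained mice (standard error 0.68, adjusted p = 0.831). The naive groups overlapped (two-sided exact permutation p = 0.3), whereas the trained groups did not (exact p = 0.1, the smallest that 3 mice against 3 allow). The difference between these genotype differences was 1.25 (limma adjusted p = 0.798). Trained against naive mice differed by -1.65 in WT (limma adjusted p = 0.270) and by -0.40 in Stau2GT mice (adjusted p = 0.747). Whether *Lcn2* was called depended on a single mouse. Without naive WT mouse 2 the naive genotype difference was -2.99 (limma adjusted p = 0.00207) and the WT training difference -2.72 (adjusted p = 0.00245). These p-values follow from removing the only naive WT mouse without a high value, so no conclusion is drawn from them. With naive WT mouse 2 as the only naive WT mouse, the naive genotype and WT training differences were 0.20 and 0.47. These are values with no test, since the mice left out were chosen by their *Lcn2* values.

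*S100a9* (cluster 17407363), the only tested member classed here as a neutrophil gene, was ordered differently from *Lcn2*. Its log2 values were 5.52, 5.21 and 5.18 in naive WT mice and 4.73, 4.77 and 4.86 in naive Stau2GT mice. All 3 naive WT mice lay above all 3 naive Stau2GT mice, with mouse 1 the highest, by a difference of -0.52 for Stau2GT (standard error 0.17, limma p = 0.0110, adjusted p = 0.941, exact p = 0.1). In trained mice the values were 4.85, 5.28 and 5.34 in WT and 4.65, 5.21 and 5.18 in Stau2GT mice, and the groups overlapped (difference -0.14, limma adjusted p = 0.854). Trained WT mouse 1 and trained Stau2GT mouse 1 were the low values there.

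The 3 remaining neutrophil genes stayed low on the array and were not tested. *S100a8* (cluster 17399823), which encodes the partner of S100A9, ranged from 3.68 to 4.28 on the log2 scale over the 12 mice. Its highest value was that of naive WT mouse 1, followed by 4.17 in trained Stau2GT mouse 1. *Ngp* (cluster 17522369), a neutrophil granule protein, read 4.78, 4.97 and 4.97 in naive WT and 4.62, 4.75 and 4.43 in naive Stau2GT mice, with no overlap, and ranged from 4.58 to 5.23 in trained mice. *Camp* (cluster 17531482), the precursor of the antimicrobial peptide cathelicidin, ranged from 3.39 to 4.03, and its highest value was in trained Stau2GT mouse 2. The high *Lcn2* mice were thus not set apart in *Ngp* or *Camp*, where naive WT mice 1 and 3 deviated by 0.03 and 0.22 for *Ngp* and by 0.12 and -0.08 for *Camp*.

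*Serpina3n* (cluster 17278328) was 8.08, 7.99 and 8.40 in naive WT, 8.10, 8.19 and 8.15 in naive Stau2GT, 8.18, 8.30 and 8.21 in trained WT, and 8.01, 7.58 and 8.11 in trained Stau2GT mice on the log2 scale. Naive WT mouse 3 was the highest and trained Stau2GT mouse 2 the lowest, and naive WT mouse 1, high in *Lcn2*, was below the median of 8.13. All 3 trained Stau2GT mice lay below all 3 trained WT mice, by a difference of -0.33 (standard error 0.14, limma p = 0.0348, adjusted p = 0.512, exact p = 0.1). In naive mice the difference was -0.01 (95% confidence interval -0.31 to 0.29, limma adjusted p = 0.998).

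**Figure D1:**
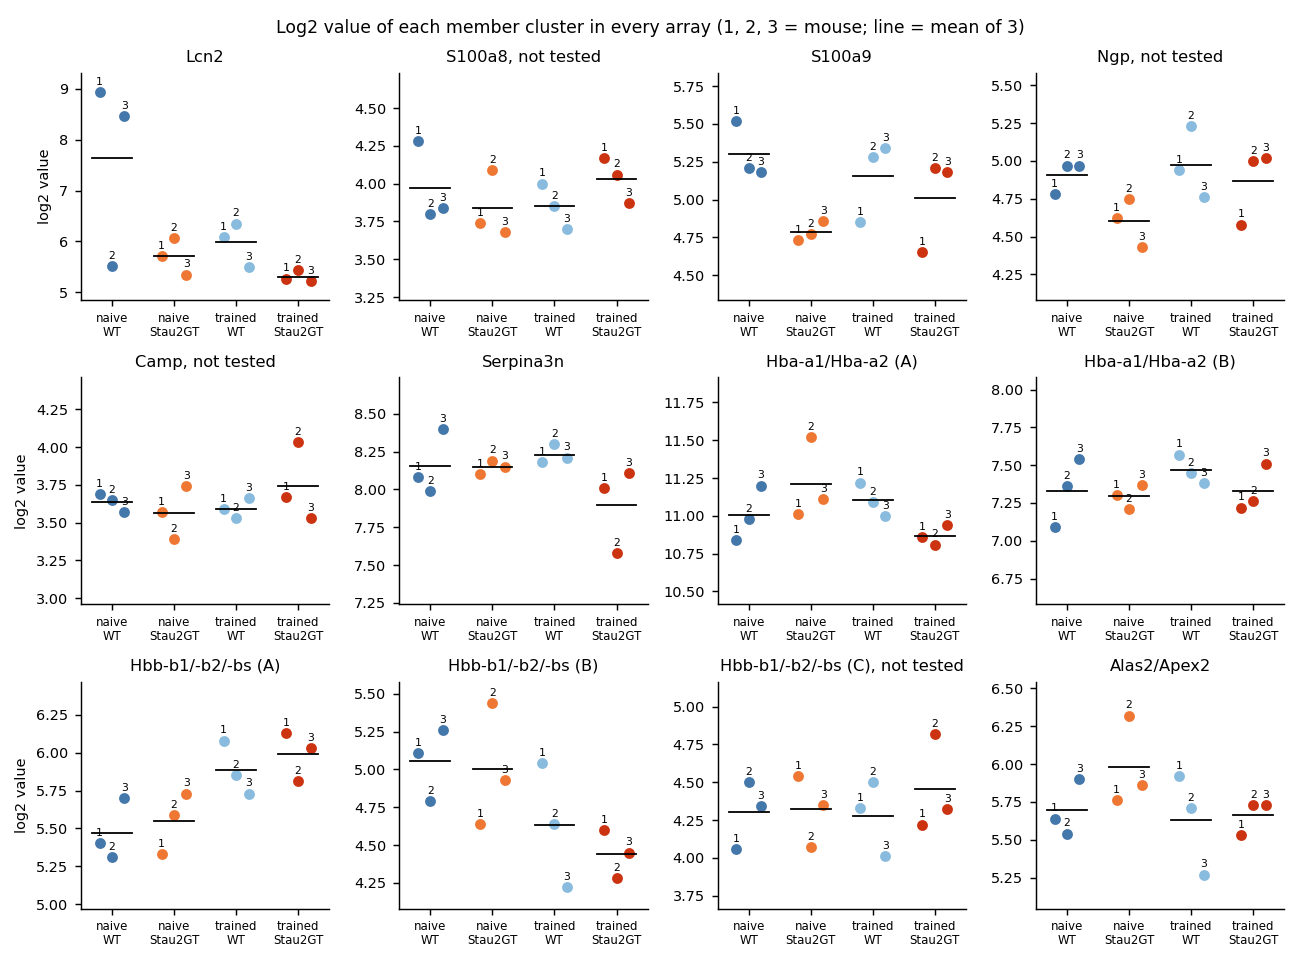
Log2 value (vertical axis, a separate range in each panel) of the 12 member clusters in every array, grouped by genotype and training, with the mouse number at each point and a line at the mean of 3 mice. *Lcn2* in naive WT mice 1 and 3 (8.93 and 8.46) lies apart from the other 10 values, which span 5.22 to 6.35.

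The alpha-globin cluster A (*Hba-a1*, *Hba-a2*) followed other mice than *Lcn2* did. Its log2 values were 10.84, 10.98 and 11.20 in naive WT mice and 11.01, 11.52 and 11.11 in naive Stau2GT mice. Naive Stau2GT mouse 2 was the highest of the 12, and naive WT mouse 1, highest in *Lcn2*, was the lowest naive mouse. The naive genotypes overlapped, with a difference of 0.21 (limma adjusted p = 0.998). In trained mice the values were 11.22, 11.09 and 11 in WT and 10.86, 10.81 and 10.94 in Stau2GT mice, which did not overlap (difference -0.23, limma p = 0.107, adjusted p = 0.665, exact p = 0.1). The interaction was -0.44 (limma p = 0.0390, adjusted p = 0.640), and trained Stau2GT mice lay 0.34 below naive Stau2GT mice on the log2 scale (difference -0.34, limma p = 0.0254, adjusted p = 0.135, exact p = 0.1). Cluster B of the same genes ranged from 7.09 to 7.57, with naive WT mouse 1 the lowest and trained WT mouse 1 the highest, and its groups overlapped in every comparison.

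The beta-globin clusters (*Hbb-b1*, *Hbb-b2*, *Hbb-bs*) did not share a direction between training states. Cluster A read 5.40, 5.31 and 5.70 in naive WT, 5.33, 5.59 and 5.73 in naive Stau2GT, 6.08, 5.85 and 5.73 in trained WT, and 6.13, 5.81 and 6.03 in trained Stau2GT mice on the log2 scale. Trained mice lay above naive mice of their genotype without overlap, by 0.42 in WT (limma adjusted p = 0.185, exact p = 0.1) and 0.44 in Stau2GT mice (limma p = 0.00997, adjusted p = 0.0848, exact p = 0.1). Cluster B had the opposite sign. It read 5.11, 4.79 and 5.26 in naive WT, 4.64, 5.44 and 4.93 in naive Stau2GT, 5.04, 4.64 and 4.22 in trained WT, and 4.60, 4.28 and 4.45 in trained Stau2GT mice. The training difference of cluster B was -0.42 in WT (limma adjusted p = 0.411, groups overlapping) and -0.56 in Stau2GT mice (limma adjusted p = 0.158, exact p = 0.1, no overlap). Cluster B was over 5 in only 4 arrays, those of naive WT mice 1 and 3, naive Stau2GT mouse 2 and trained WT mouse 1. It thus passed the filter mainly through naive mice. Cluster C was not tested and ranged from 4.01 to 4.82. With the mean of all 3 clusters the training difference was -0.0078 in WT and 0.0044 in Stau2GT mice.

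The *Alas2*/*Apex2* cluster was 5.64, 5.54 and 5.90 in naive WT, 5.76, 6.32 and 5.86 in naive Stau2GT, 5.92, 5.71 and 5.27 in trained WT, and 5.53, 5.73 and 5.73 in trained Stau2GT mice on the log2 scale. Naive Stau2GT mouse 2 was again the highest. The genotype difference in naive mice was 0.29 (standard error 0.18, limma adjusted p = 0.998), and trained Stau2GT mice lay below naive Stau2GT mice without overlap (difference -0.32, limma adjusted p = 0.291, exact p = 0.1).

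Over the 12 arrays, alpha-globin cluster A and the *Alas2*/*Apex2* cluster gave Pearson's r = 0.77 and Spearman's rho = 0.72 (permutation p = 0.00496 for r, adjusted p = 0.164 over 66 pairs of member clusters). Within the 6 naive arrays r was 0.95 and within the 6 trained arrays 0.36, and without the 2 arrays farthest from the median it was 0.40, so the relation rested on those arrays. Beta-globin cluster B and the *Alas2*/*Apex2* cluster gave r = 0.74 and rho = 0.65 (permutation p = 0.00438, adjusted p = 0.164), with 0.73 within the naive, 0.69 within the trained arrays and 0.52 without the 2 farthest. Alpha-globin cluster A against beta-globin cluster B gave r = 0.70 over all arrays (permutation adjusted p = 0.196), 0.68 within the naive, 0.73 within the trained arrays and 0.45 without the 2 farthest. Against beta-globin cluster A it gave r = -0.03. None of the 66 pairs passed the adjustment. For *Lcn2*, whose arrays fall into separate clusters, no pooled r with another member is given.

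**Figure D2:**
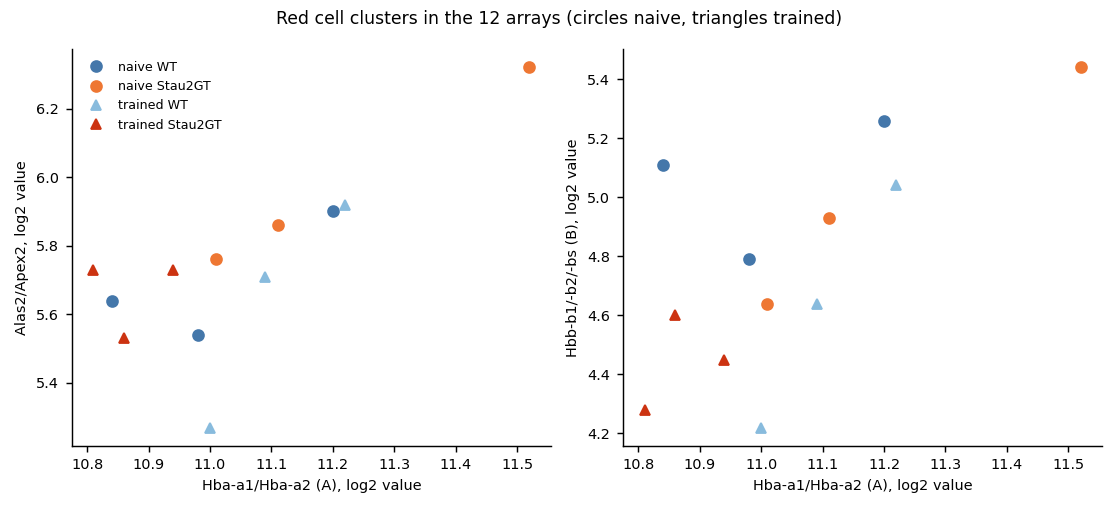
Log2 value of the *Alas2*/*Apex2* cluster (left) and of beta-globin cluster B (right) against alpha-globin cluster A, 1 point per array, circles for naive and triangles for trained mice. Naive Stau2GT mouse 2 has the highest value on all 3 axes (11.52, 6.32 and 5.44).

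None of the 8 tested member clusters passed an adjusted p of 0.05 in any of the 5 comparisons. For genotype in naive mice 0 of 8 passed against 0.0858% of all tested clusters, and 1 of 8 (*S100a9*) did not overlap between groups against 12% of all clusters. For genotype in trained mice 0 of 8 passed against 0.179%, and 3 of 8 (*Lcn2*, *Serpina3n* and alpha-globin A) did not overlap against 11.2%. For the interaction 0 of 8 passed against 0.0215%. For training in WT mice 0 of 8 passed against 1.4%, and 1 of 8 (beta-globin A) did not overlap against 22.9%. For training in Stau2GT mice 0 of 8 passed against 6.11%, and 4 of 8 (alpha-globin A, beta-globin A and B, and *Alas2*/*Apex2*) did not overlap against 28.1%. At an unadjusted limma p under 0.05 there were 2, 1, 1, 2 and 3 of 8 member clusters in these comparisons, beside 5%, 8.92%, 7.7%, 16% and 26.2% of all tested clusters. The median log2 difference of the 8 clusters was -0.023 for genotype in naive mice and -0.17 in trained mice, beside 0 and 0.0033 over all tested clusters. It was -0.12 for the interaction (0.0033 over all), 0.0067 for training in WT mice (0.0033 over all) and -0.28 for training in Stau2GT mice (0.017 over all).

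**Figure D3:**
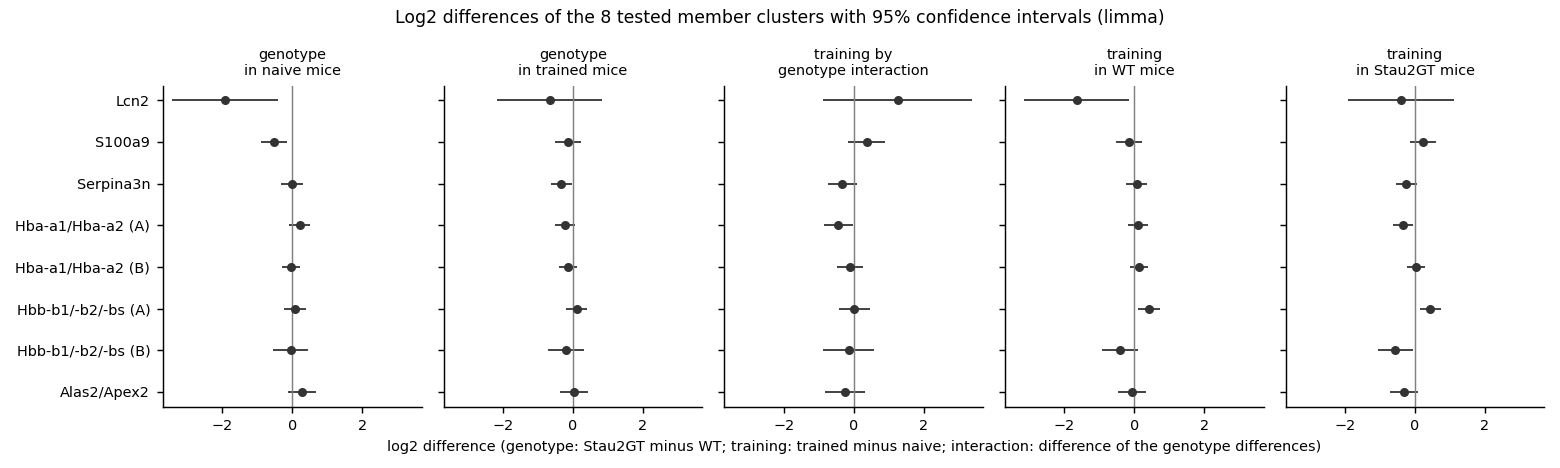
Log2 difference (point) and 95% confidence interval (bar) from limma for the 8 tested member clusters in the 5 comparisons, with 12 arrays in the fit. In each comparison *Lcn2* has the widest interval, and for genotype in naive mice it runs from -3.43 to -0.41.

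Genes of the same systems were then followed array by array in lists chosen for this purpose. In acute-phase genes (21 tested of 40 listed, among them receptors and plasma proteins of the inflammatory response), naive WT mouse 1 was the highest of the 6 naive mice for 10 genes, mouse 3 for 5 and mouse 2 for 1. The median deviation of this list was 0.18 in naive WT mouse 1, 0.16 in mouse 3 and -0.08 in mouse 2, and between -0.09 and 0.05 in the other 9 mice. The interleukin-1 receptor gene *Il1r1* was 7.08 and 6.96 on the log2 scale in naive WT mice 1 and 3, 6.00 in mouse 2 and between 5.84 and 6.33 in the other 9. *Osmr*, the oncostatin M receptor, was 7.43 and 7.26 in these mice and 6.43 in mouse 2. *Cd14*, the co-receptor for bacterial lipopolysaccharide, was 5.60 and 5.56 against 4.71, and *Cp*, the ferroxidase ceruloplasmin, 7.93 and 8.05 against 7.34. The same mice that were high in *Lcn2* were thus high in these 4 genes, which were singled out after their values were seen. Other genes of the list went the other way. Naive WT mouse 1 was the lowest naive mouse for 1 gene, *S1pr3* (deviation -0.18, and 0.10 in mouse 3). Mouse 3 was the lowest for 3 genes, *Saa3*, *Itih4* and *Aspg*. They deviated by -0.46, -0.18 and -0.20 in mouse 3 and by 0.04, 0.24 and 0.19 in mouse 1.

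Lists of neutrophil and monocyte genes were followed in the same way. In the neutrophil list without the members (14 tested of 32 listed), the median deviation was 0.14 in naive WT mouse 1 and -0.005 in mouse 3, and the summed log2 value lay between 79.35 and 81.39 in naive WT and between 78.75 and 79.99 in naive Stau2GT mice. In naive WT mouse 1 the neutrophil gene *Retnlg*, not tested, was 5.24, and between 3.54 and 4.06 in all other mice. The neutrophil chemokine receptor gene *Cxcr2* was 5.68 in that mouse and between 4.86 and 5.19 in all others, while naive WT mouse 3 had 5.10. The defining neutrophil markers *Ly6g*, *Ctsg* and *Mmp8* also stayed under the filter and went both ways in naive WT mouse 1, where *Ly6g* was 3.47, the lowest of the 12 mice, *Ctsg* 4.07, within the range of the others, and *Mmp8* 4.76, the highest. In trained Stau2GT mouse 2, which had the highest *Camp* value, the neutrophil list deviated by 0.20, and its *Lcn2* value was 5.44. The granule genes *Ltf* (lactoferrin) and *Elane* (neutrophil elastase) were 5.63 and 6.03 there, against 5.05 to 5.26 and 5.57 to 5.89 in the other 11 mice. Other genes of the list were low in that mouse. *Csf3r* was 6.00, the lowest of the 12 mice, *Anxa1* deviated by -0.22 and *Pglyrp1* by -0.09. The member *S100a9* deviated by 0.03 there. In the monocyte list (7 tested of 13) the median deviation was 0.28 in naive WT mouse 1, 0.18 in mouse 3 and -0.17 in mouse 2. Its tested genes include *Mrc1*, *Lyve1*, *Fn1* and *Vcan*, which are not particular to circulating monocytes. *Lyve1* is also in the glucocorticoid list described below. The median of the monocyte list therefore does not stand for circulating cells alone.

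**Figure D4:**
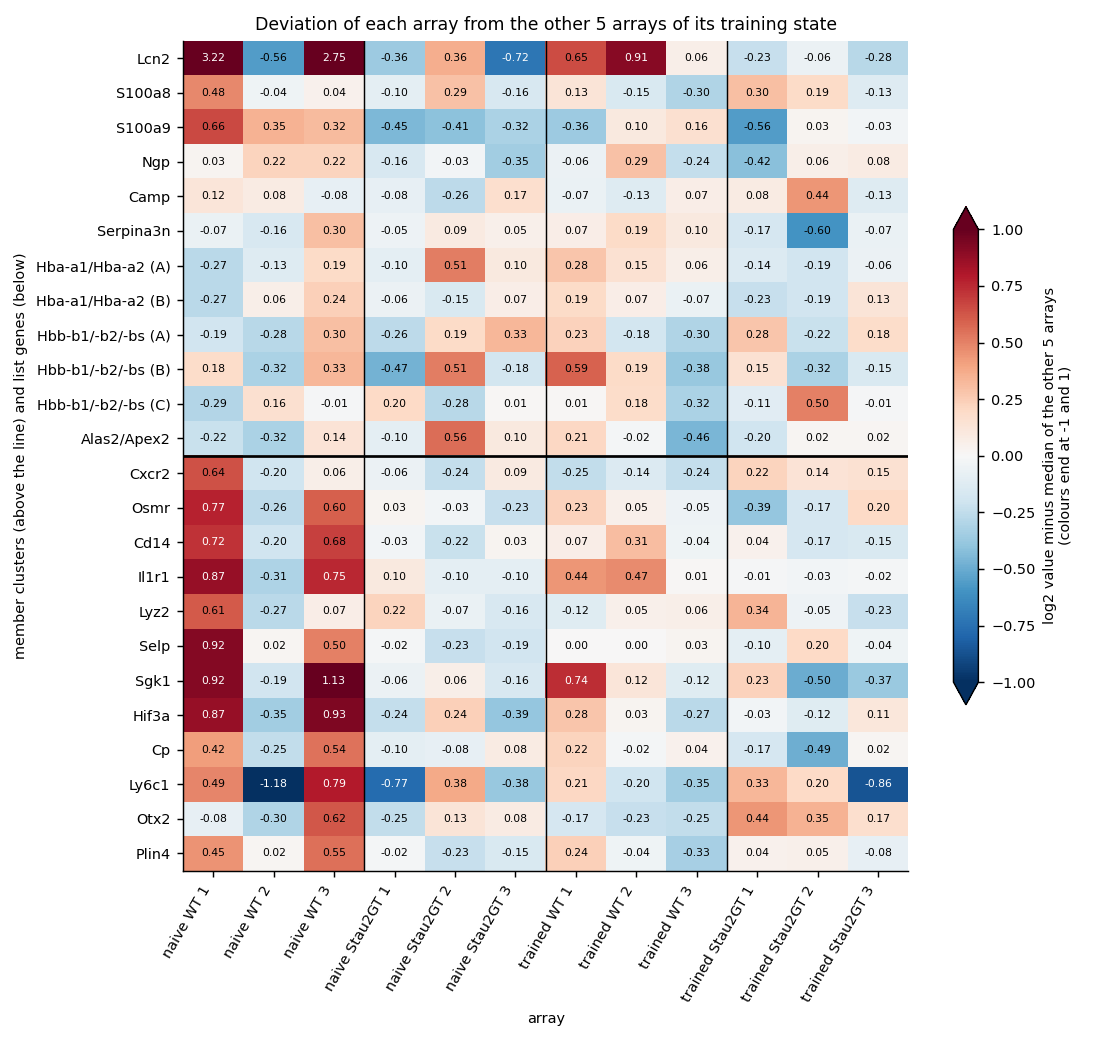
Deviation of each array from the median of the other 5 arrays of its training state (log2, printed in each cell, colours ending at -1 and 1), for the 12 member clusters above the line and, below it, the list genes more than 0.5 above the others in naive WT mouse 1 or 3. *Lcn2* reaches 3.22 and 2.75 in these mice, and the globin clusters lie between -0.29 and 0.33 there.

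Other gene groups were also high in naive WT mice 1 and 3. In the list of genes known to respond to glucocorticoids (18 tested of 19), the median deviation was 0.31 in naive WT mouse 1, 0.28 in mouse 3, -0.17 in mouse 2 and 0.18 in trained WT mouse 1. *Sgk1*, a kinase gene induced by glucocorticoids, was 8.73 and 8.94 on the log2 scale in naive WT mice 1 and 3, 7.68 in mouse 2 and 8.76 in trained WT mouse 1, whose *Lcn2* value was 6.09. The gene of this list that was called, *Dusp1*, was higher in trained than in naive mice. Its difference was 0.77 in WT (limma adjusted p = 0.0171) and 0.64 in Stau2GT mice (adjusted p = 0.0207). Most of the list did not follow *Dusp1* in WT mice, where the training difference was below 0 for 14 of 18 genes. The median of the list was -0.088 in WT mice, beside 0.0033 over all clusters. In Stau2GT mice 8 of 18 genes were below 0, with a median of 0.047 beside 0.017 over all clusters. The endothelial adhesion gene *Selp* was 6.01 and 5.59 in naive WT mice 1 and 3 and at most 5.26 in all others. *Selp* was singled out after its values were seen. *Kdr*, a receptor for VEGF, went the other way and deviated by -0.66 and -0.69 in naive WT mice 1 and 3, the tight junction gene *Cldn5* by -0.52 and -0.39, and the median of the endothelial list by -0.075 and -0.045. The part of these groups in the *Lcn2* values was not tested. Of 184 list genes tested, 8 lay more than 0.5 above the other naive mice in naive WT mouse 1 and 9 in mouse 3, which is 4.35% and 4.89% against 1.54% and 1.22% of all tested clusters, and 0 did in the other 4 naive mice. The lists were chosen with earlier results of these data known, so these shares describe the lists and are no test. The hormone gene *Prl* was 10.80 in naive WT mouse 3 and 11.01 in naive Stau2GT mouse 1, whose *Lcn2* value was 5.71, and it was 6.55 in naive WT mouse 1.

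**Figure D5:**
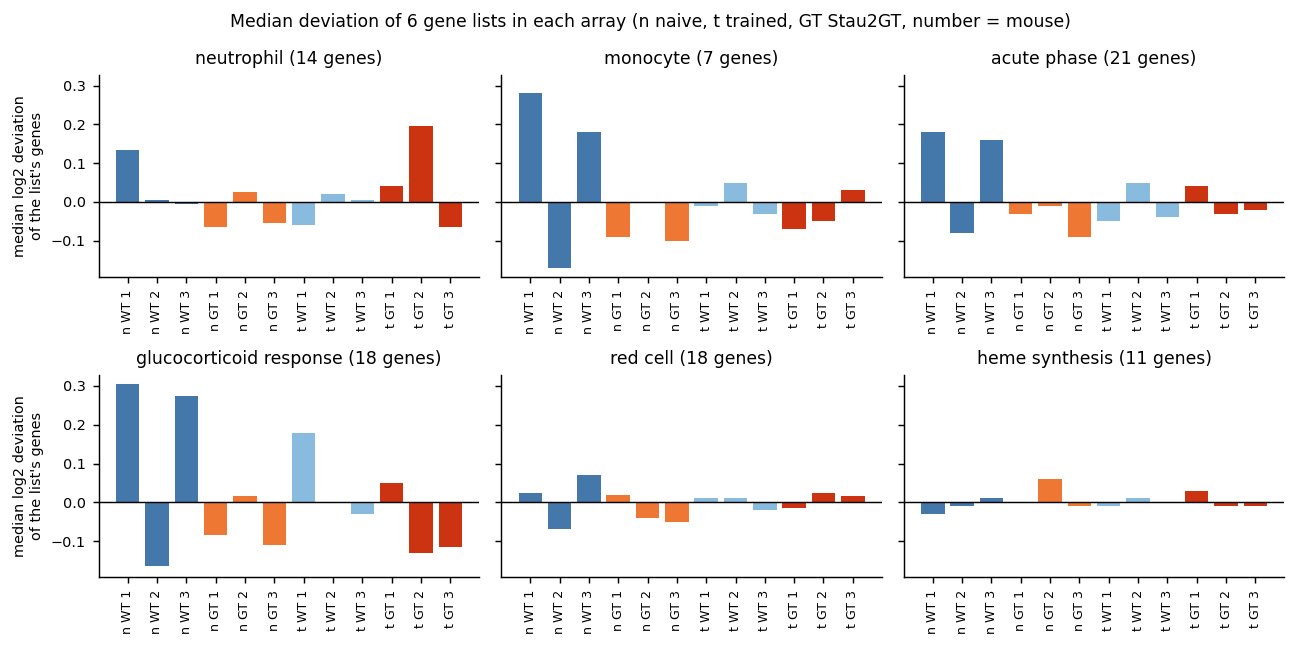
Median log2 deviation of the tested genes of 6 lists in each of the 12 arrays, coloured by group. The acute-phase, monocyte and glucocorticoid-response lists are above 0.15 in naive WT mice 1 and 3, and the red cell list stays between -0.07 and 0.07 in all 12 arrays.

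For red cell and heme genes other than the members, the list medians moved little between mice of the same training state. The red cell list (18 tested of 33 listed, with membrane proteins such as *Slc4a1* and the regulators *Klf1* and *Tal1*) had a median deviation between -0.07 and 0.07 in all 12 mice. In naive Stau2GT mouse 2, the highest in alpha-globin A, it was -0.04. Single genes of the list could vary more, such as *Klf1*, from 4.41 in trained WT mouse 3 to 5.28 in trained WT mouse 1. *Slc4a1*, the anion exchanger of the red cell membrane, was 5.89 in naive Stau2GT mouse 2 and between 5.58 and 5.99 in all 12. The heme synthesis list (11 tested of 12) deviated by 0.06 in that mouse and by -0.03 to 0.03 in the others. The endothelial list (16 tested of 18), which stands for vessels and not for blood, deviated by 0.00 in it. Between training states the summed log2 value of the red cell list was 111.35 to 112.39 in naive and 112.89 to 113.80 in trained Stau2GT mice, without overlap, with a median training difference of 0.078 (13 of 18 genes above 0, beside 0.017 over all clusters). In the platelet list (6 tested of 12), another marker of blood, the median training difference in Stau2GT mice was 0.30 with 6 of 6 genes above 0, and the collagen receptor gene *Gp6* rose by 0.58 (limma adjusted p = 0.0406). The tested red cell members were split there. Alpha-globin A, beta-globin B and the *Alas2*/*Apex2* cluster had the opposite sign (-0.34, -0.56 and -0.32). Beta-globin A and alpha-globin B had the same sign as these lists (0.44 and 0.037).

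No gene of the neutrophil, acute-phase, red cell, heme synthesis, *Lcn2*-system or S100 partner lists passed the adjusted p in either genotype comparison or in the interaction. For genotype in naive mice the median difference was -0.15 over the acute-phase list (15 of 21 genes below 0), -0.09 over the neutrophil list (11 of 14 below 0) and -0.04 over the red cell list (12 of 18 below 0), beside 0 over all clusters. For genotype in trained mice these medians were 0.067 (11 of 21 above 0), 0.028 (8 of 14 above 0) and 0.0083 (9 of 18 above 0), beside 0.0033 over all clusters. Training in Stau2GT mice gave limma calls for 4 of the 80 genes tested in these lists, which is 5% beside the 6.11% of all clusters. *Gfi1*, a transcription factor of the granulocyte lineage, rose by 0.40 (adjusted p = 0.0362), and *Tspo2*, an erythroid membrane protein gene, rose by 0.42 (adjusted p = 0.0299). *Tfrc*, the transferrin receptor through which cells take up iron, fell by 0.41 (limma adjusted p = 0.0240), and *Ireb2*, an iron-regulatory protein that binds *Tfrc* mRNA, fell by 0.28 (adjusted p = 0.0375). *Slc22a17*, reported as a lipocalin 2 receptor, was between 9.92 and 10.27 on the log2 scale in all 12 mice.

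Genes whose values were most like those of a member are given as a description, by Pearson's r of values centred on their group mean over 12 arrays. For *Lcn2* these were *Il1r1* (r = 0.96), *Igfals* (0.95), *Glcci1* (0.93), *Prkx* (0.93) and *Stat2* (0.93). The order for *Lcn2* rests on naive WT mice 1 and 3, without which these were 0.71, 0.57, 0.76, -0.04 and 0.59. For alpha-globin cluster A they were *Cryz* (0.96), *Strada* (0.94), *Tspan9* (0.91), *Usp28* (0.90) and *Slc29a4* (0.90), between 0.79 and 0.93 without the 2 farthest arrays. For *S100a8* they were *Alox5* (0.93), *Ngfr* (0.90), *Ubl3* (0.89), *Trp53bp2* (0.89) and *Selenbp1* (0.89). *S100a8* was under the filter, at most 4.28 in any mouse, so its likeness is that of values near the floor. For *Serpina3n* the first was *Acy3* (0.95, and 0.59 without the 2 farthest arrays).

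Facts of the whole series bear on these values as follows. Array medians lay between 5.68 and 5.79, and arrays of a group correlated at 0.978 to 0.988. *Stau2*, the trapped gene, was lower in Stau2GT mice by 0.18 in naive and 0.23 in trained mice on the log2 scale (differences -0.18 and -0.23, limma adjusted p = 0.954 and 0.330).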

How the data were processed

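Brain RNA of 12 mice was hybridized to Affymetrix Mouse Gene 2.0 ST arrays. The log2 values, rounded to 2 decimals, were deposited as the authors had made them with RMA (Bioconductor package oligo), with a value for each transcript cluster in each array. The sources used here give neither the version of oligo nor the genome build of the probes, nor whether all arrays were normalized at once. Of 41345 clusters, 23521 had a single gene symbol, 1820 had several and 16004 are unnamed here.

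The filter of the study's methods, 3 or more arrays over a log2 value of 5, kept 27966 clusters. limma 3.58.1 in R 4.3.3 fitted 4 group means to 12 arrays (8 residual and 2.78 prior degrees of freedom), with Benjamini-Hochberg adjustment over all clusters kept and a call at an adjusted p under 0.05. Single clusters were also compared by two-sided exact permutation tests, and correlations by 100000 permutations. The number of arrays limits the precision. The fit was tested on simulated data. A deviation is the log2 value of an array minus the median of the other 5 of its training state. Members were all clusters whose annotation holds a listed symbol. In the lists described, every gene called was named, while genes of lowest p that were not called were mostly left out. The 5 genes most like a member were named for *Lcn2*, alpha-globin A and *S100a8*, and the first for *Serpina3n*. Other genes are given as chosen after their values were seen, including *Retnlg*, *Cxcr2*, *Ltf*, *Elane*, *Csf3r*, *Saa3*, *Klf1*, *Sgk1*, *Selp* and *Prl*. Where a gene had several clusters with 1 symbol, the cluster of highest mean was used. Members and lists were chosen with earlier results of these data known. Promoters and gene positions came from RefSeq (GRCm38.p6). Replicate numbers did not pair the mice. Alternative settings were a filter at 6, no filter, quantile normalization, median centering, array weights, robust moderation with a trend in intensity, the replicate block, only the 6 arrays compared, the methods' t-test, the mean over a gene's clusters, and leaving out each array. Leaving out naive WT mice 1 and 3 was added after the data were seen.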

Additional observations from a re-analysis of the deposited data

How the results depend on the processing

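The count of called member clusters was 0 in all 5 comparisons under no filter, the filter at 6, both normalizations, the trend, array weights, the replicate block, the 6 arrays compared and the methods' t-test. Leaving out 1 array gave 0 to 1 calls for genotype in naive mice and for training in WT mice (1, *Lcn2*, without naive WT mouse 2) and 0 in the other comparisons. With the replicate block the naive *Lcn2* difference was -1.92 (limma adjusted p = 0.961), and same-numbered mice correlated at -0.101 to 0.0686, so the numbers were not taken as pairs. Of 427 values of 19 member differences under alternatives, 10 changed sign. *Lcn2* without naive WT mice 1 and 3 gave 0.20 for genotype in naive mice, -0.87 for the interaction and 0.47 for training in WT mice, with 1 mouse left in that group, chosen by outcome, so these are values with no test. *Serpina3n* for genotype in naive mice gave 0.0033 with median centering, -0.093 to 0.11 when leaving out 1 array and 0.16 without naive WT mice 1 and 3. *S100a9* for genotype in trained mice gave -0.30 to 0.038 when leaving out 1 array. The mean over the beta-globin clusters turned cluster A for training in WT mice to -0.0078 and cluster B for training in Stau2GT mice to 0.0044, since the clusters have opposite signs. Leaving out 1 array moved the naive genotype difference of *Lcn2* between -2.99 and -1.28. Signals near the filter (*S100a8*, *Camp*, *Ngp*, *S100a9*, beta-globin B and C) limit what the array can show for them. Of these, *S100a9* was over 5 in 7 arrays, beta-globin B in 4 and *Ngp* in 2.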
